A study of Capra hircus with 3 samples.

Results

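STAT3 carries the cytokine signal that starts mammary involution, the regression of the milk-secreting gland after milk removal stops. The genes described here are STAT3 itself, the cytokines LIF and OSM, their receptor subunits LIFR, OSMR and IL6ST, the feedback inhibitor SOCS3, the transcription factors CEBPD and CEBPB, and PIK3R1. They were listed by symbol and matched by NCBI gene ID, and 6 of the 10 were matched among 13023 protein-coding genes, each to a single locus. The other 4, LIF, OSM, CEBPD and CEBPB, were not analysed here.

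Mammary gland tissue came from Laoshan dairy goats, 4 years old and in the third lactation, with no treatment described other than anaesthesia for surgical sampling. The stages were early lactation (day 10 after kidding), peak lactation (day 90) and late lactation (day 210). RNA from 5 goats was pooled into 1 library per stage, so the spread between goats cannot be estimated, no test was possible, and each difference below has no replicate check. As the paper's methods read, the same 5 goats were sampled by surgery at every stage, and pooling removed this pairing. The later samples thus followed earlier surgery on the same goats, and an effect of it was not tested. All stages lie within lactation, and tissue after the end of milking was not part of the design. Values are FPKM, which scale the fragments of a gene by the length of its transcripts and by the mapped reads of the library. The reads behind each value are unknown, so no counting interval is given.

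In the textbook account, LIF binds LIFR and OSM binds OSMR, each together with the shared subunit IL6ST (gp130), and the receptor-bound JAK kinases then phosphorylate STAT3. STAT3 moves to the nucleus and induces SOCS3, which blocks the receptor again, and CEBPD. In the mouse gland, STAT3 also raises short forms of the regulatory subunit encoded by PIK3R1, which dampen survival signalling through AKT. STAT5, which prolactin activates during lactation, has its own feedback genes in CISH and SOCS2.

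Of the markers of milk-secreting epithelium listed, 8 of 10 were found, with summed levels of 126124, 33281 and 73967 FPKM in the 3 libraries, early-, peak- and late-labelled. LALBA had 70053 and 15214 FPKM in the early- and peak-labelled libraries and was listed at 0 in the late-labelled one. Of the 8 markers, 7 were lowest in the peak-labelled library, beside 45.5% of protein-coding genes with at least 1 FPKM in every library. The median log2 ratio of the 8 for late over early lactation was 0.41, although the sum was lower in the late-labelled library. MUC1 was the lowest of the markers other than LALBA, at 13.1, 6.66 and 19.7 FPKM. The stage labels of 2 libraries are in doubt. For late over peak lactation, log2 ratios from the deposited columns had a Pearson correlation of -0.88 with those from the supplementary lncRNA values, over 105 annotated lncRNA genes above 0.1 FPKM in every value used. For late over early lactation, the correlation was -0.13 over 98 genes with the column labelled late and 0.84 with that labelled peak. For peak over early lactation, it was -0.15 over 42 genes with the column labelled peak and 0.62 with that labelled late. These sets were selected for differing between stages and are a description only. Libraries are therefore named by their label, and if the columns were exchanged, each value given for the library labelled peak would belong to late lactation and the reverse.

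STAT3 was abundant and nearly level, while its feedback gene SOCS3 varied more than any other of the 6 genes. SOCS3 and OSMR were highest in the peak-labelled library and lowest in the late-labelled one, and LIFR had the opposite order in the deposited values. IL6ST was highest in the peak-labelled library, and PIK3R1 differed little. From the highest to the lowest library, the ratio was 6.32 for SOCS3, 2.97 for OSMR, 1.77 for LIFR, 1.75 for IL6ST, 1.22 for PIK3R1 and 1.07 for STAT3. Whether neighbours in this order differ beyond the spread between goats cannot be said from 1 library per stage.

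**Figure D1:**
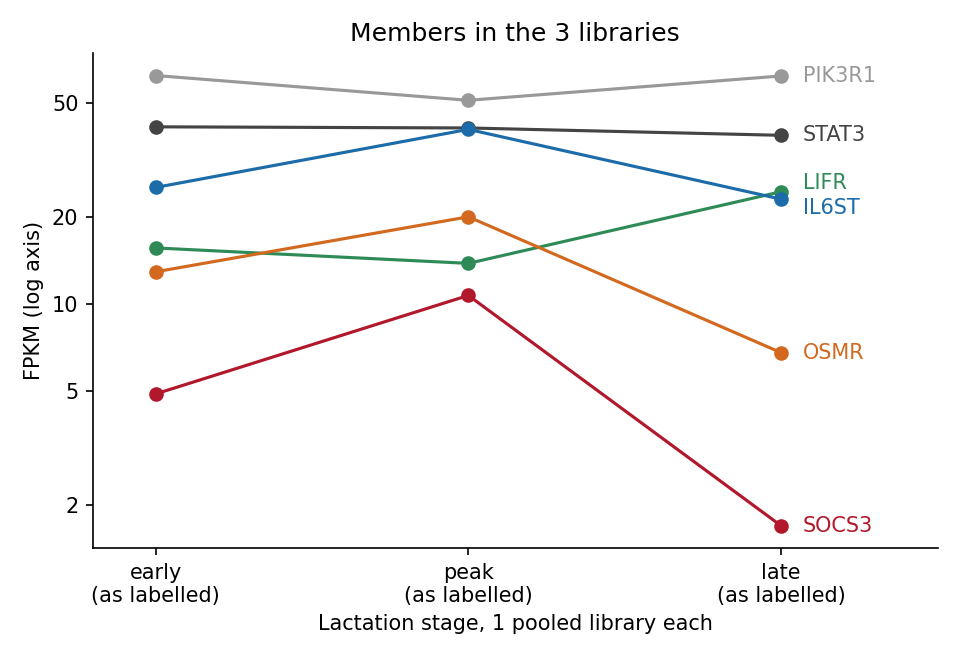
FPKM of the 6 genes (log axis) in the 3 libraries, early-, peak- and late-labelled, with 1 point per pooled library, lines joining the points of a gene, and no error bars because there are no replicates. SOCS3 spans 1.69 to 10.7 FPKM, while STAT3 stays between 38.6 and 41.3 FPKM.

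Of the receptor genes, IL6ST encodes the signal-transducing subunit that all cytokines of the interleukin-6 family share. It had 25.4 FPKM in the early-labelled library, 40.4 FPKM in the peak-labelled one and 23.1 FPKM in the late-labelled one. Thus the early- and late-labelled libraries lay close together, and the peak-labelled library stood above both, by log2 ratios of 0.67 over early lactation and -0.81 for late over peak lactation. IL6ST lies on scaffold NW_005100890.1 from 7022129 to 7089674.

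OSMR encodes the subunit that gives the complex its preference for OSM. It had 12.9 FPKM in the early-labelled library, 20.1 FPKM in the peak-labelled one and 6.77 FPKM in the late-labelled one. The log2 ratios were 0.64 for peak over early, -0.93 for late over early and -1.57 for late over peak lactation, so that only the last passed 2-fold. A difference as large or larger, in either direction, was seen in 9.66% of protein-coding genes for late over early and 13.7% for late over peak lactation. Among protein-coding genes, OSMR ranked above 69.8%, 84.5% and 49.9% in the early-, peak- and late-labelled libraries.

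LIFR encodes the subunit that binds LIF and can also serve OSM. Its 15.7 FPKM in the early-labelled library and 13.8 FPKM in the peak-labelled one were close together, and 24.6 FPKM in the late-labelled one stood above both. The log2 ratio was 0.65 for late over early and 0.83 for late over peak lactation. Neither reached 2-fold. For late over early lactation, LIFR lay above the 95th percentile of well-expressed protein-coding genes (1 FPKM or more in each library compared), a log2 ratio of 0.47. Counting both directions and all protein-coding genes compared, 15.5% had a difference as large or larger.

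OSMR and LIFR lie on the same scaffold, NW_005100891.1, OSMR from 929 to 40656 and LIFR from 1005337 to 1115638, with 964680 nt between them. The OSMR locus begins within the first kilobase of its scaffold, and whether the assembled gene is complete there was not tested. These genes of related receptors, on 1 scaffold, had opposite orders of level in the deposited values.

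Ratios between genes within a library do not depend on how libraries are scaled against each other. The pairs given here were chosen after the values had been seen. The ratio of OSMR to LIFR was 0.826 in the early-labelled library, 1.45 in the peak-labelled one and 0.276 in the late-labelled one. OSMR was thus above LIFR in the peak-labelled library and below it in both others. The ratio of LIFR to IL6ST was 0.616, 0.342 and 1.06, and that of OSMR to IL6ST was 0.509, 0.497 and 0.293, in the same order of libraries. OSMR kept nearly the same proportion to IL6ST in the early- and peak-labelled libraries, while that of LIFR was lower in the peak-labelled library.

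**Figure D2:**
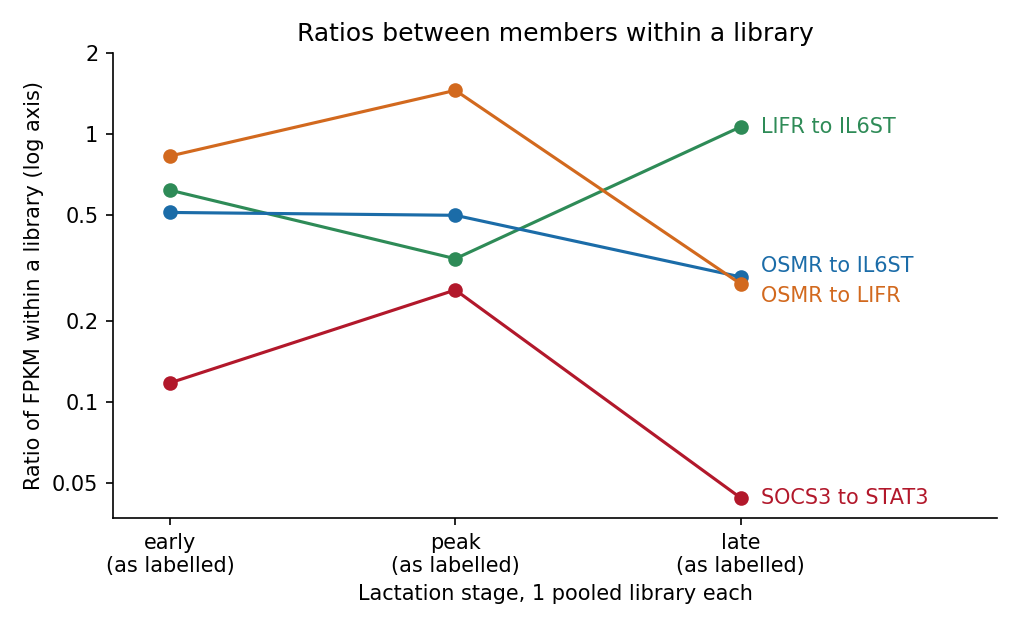
Ratios of FPKM between pairs of genes within each library (log axis), for the 3 libraries, early-, peak- and late-labelled, with 1 point per library and no error bars. OSMR to LIFR runs from 0.276 to 1.45, and SOCS3 to STAT3 from 0.0439 to 0.262, both highest in the peak-labelled library.

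STAT3 encodes the transcription factor at the centre of the pathway, and its activity depends on phosphorylation, which RNA levels do not show. It had 41.3 FPKM in the early-labelled library, 40.9 FPKM in the peak-labelled one and 38.6 FPKM in the late-labelled one. These levels lay above those of 92.5%, 94.3% and 91.7% of protein-coding genes. The log2 ratios were -0.01 for peak over early, -0.10 for late over early and -0.08 for late over peak lactation, and 98.2%, 74.7% and 89.7% of the protein-coding genes compared had a difference as large or larger. STAT3 lies on scaffold NW_005100886.1 from 18131393 to 18163511, on the same scaffold as SOCS3 and 11028904 nt away from it.

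SOCS3 encodes the inhibitor that STAT3 induces and that binds IL6ST. It had 4.87 FPKM in the early-labelled library, 10.7 FPKM in the peak-labelled one and 1.69 FPKM in the late-labelled one. The peak-labelled library was 2.20-fold above the early-labelled library, and the late-labelled library was 2.87-fold below it, with log2 ratios of 1.14 and -1.52. For late over peak lactation the log2 ratio was -2.66, and 4.71% of protein-coding genes differed as much. Its rank moved from above 39.0% of protein-coding genes in the early-labelled library to 64.7% in the peak-labelled library and 19.4% in the late-labelled library. SOCS3 was the least abundant of the 6 genes in all libraries and the shortest locus, with a span of 1402 nt on scaffold NW_005100886.1 from 29192416 to 29193817. The ratio of SOCS3 to STAT3 was 0.118, 0.262 and 0.0439 in the early-, peak- and late-labelled libraries, so the feedback gene varied 5.96-fold against the gene that induces it.

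PIK3R1 encodes p85alpha, the main regulatory subunit of phosphoinositide 3-kinase, and its short forms. The FPKM of the gene does not tell these forms apart. PIK3R1 was the most abundant of the 6 genes, with 62.2 FPKM in the early-labelled library, 51.0 FPKM in the peak-labelled one and 62.0 FPKM in the late-labelled one. It lies on scaffold NW_005100889.1 from 1558056 to 1640317. The early- and late-labelled libraries were nearly equal, with a log2 ratio of -0.01, and the peak-labelled library lay lower by 1.22-fold. PIK3R1 exceeded PIK3CA, which encodes a catalytic subunit, 4.72-fold, 3.35-fold and 4.33-fold in the early-, peak- and late-labelled libraries.

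Between the early- and peak-labelled libraries, 1 of the 6 genes, SOCS3, differed at least 2-fold, against 17.7% of 13020 protein-coding genes, made up of 10.9% higher and 6.8% lower in the peak-labelled library. With a pseudocount of 1 FPKM the log2 ratio of SOCS3 was 0.997 and the count was 0, and with the libraries set to the same sum over protein-coding genes 3 genes, OSMR, IL6ST and SOCS3, differed. Between early and late lactation it was again 1, SOCS3, lower in the late-labelled library, against 8.71% of 13004 genes, with 1.97% higher and 6.74% lower. Between peak and late lactation, 2 genes, OSMR and SOCS3, were lower in the late-labelled library, against 25.9% of 13015 genes, with 8.56% higher and 17.4% lower. With so few members, these counts do not set the genes apart from the background. The median log2 ratio of the 6 genes was 0.31, -0.12 and -0.45 for peak over early, late over early and late over peak lactation, beside 0.01, -0.03 and -0.03 over all genes compared. OSMR, IL6ST and SOCS3 had the order of peak above early above late, as did 2993 of 11087 protein-coding genes with at least 1 FPKM in every library. The comparisons share libraries and are not independent.

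The scale of the libraries bears on these ratios. The sum over protein-coding genes was 478221, 275836 and 421182 FPKM in the early-, peak- and late-labelled libraries. The 8 markers of milk-secreting epithelium alone gave 126124, 33281 and 73967 FPKM of it, so a few abundant genes weigh heavily on a scaling to this sum. Over all deposited loci, the highest locus of each library held 30.0%, 46.0% and 29.9% of the FPKM sum. In the peak-labelled library, where that sum was 918441 FPKM, this locus exceeded the coding sum and so lies outside the coding genes. Its weight on the ratios with the peak-labelled library was not tested. When each library was set to the same sum over protein-coding genes, the median log2 ratio of peak over early lactation moved from -0.03 to 0.77 over these well-expressed genes, and every log2 ratio of this comparison moved by 0.79. Under that scaling the log2 ratio of peak over early lactation became 0.78 for STAT3, 0.62 for LIFR and 0.51 for PIK3R1, so that the sign of these ratios turned and LIFR was lowest in the early-labelled library. With the libraries set to the same upper quartile, that of STAT3 was 0.14. For late over early lactation, the coding sum turned the sign for STAT3 (0.09), IL6ST (0.05) and PIK3R1 (0.18). Relative to the median of well-expressed genes, the ratio of STAT3 for peak over early lactation was level and those of LIFR and PIK3R1 were below it. SOCS3 was at 1.93 for peak over early and at -3.27 for late over peak lactation.

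The SOCS family encodes feedback inhibitors of cytokine receptors, and SOCS3 did not share the pattern of the members that follow STAT5. CISH had 16.0 FPKM in the early-labelled library, 4.19 FPKM in the peak-labelled one and 9.50 FPKM in the late-labelled one. SOCS2 had 24.0, 7.64 and 24.99 FPKM in the same order. Both were lowest where SOCS3 was highest. The log2 ratio of peak over early lactation was -1.93 for CISH and -1.65 for SOCS2, against 1.14 for SOCS3, and with the libraries set to the same coding sum it was -1.14, -0.86 and 1.93. SOCS6, a member linked to receptor tyrosine kinases, had 23.0, 7.59 and 17.6 FPKM, also lowest in the peak-labelled library. SOCS1, an inhibitor of interferon signalling, had 4.14, 2.04 and 1.29 FPKM and was highest in the early-labelled library. SOCS4, SOCS5 and SOCS7 differed less than 2-fold in each comparison of the deposited values. With the same coding sum, however, SOCS4 and SOCS5 were at 1.24 and 1.47 for peak over early lactation. For late over peak lactation they were then at -1.08 and -1.19, the same directions as SOCS3. Of the other negative regulators, the most abundant was PTPN2, a phosphatase of JAK kinases, with 28.3, 31.2 and 25.3 FPKM. Over the 15 listed regulators, all found, 4 were at least 2-fold lower and 0 higher in the peak-labelled library than in the early-labelled library, with a median log2 ratio of 0.10. Over all protein-coding genes, 6.8% were lower and 10.9% higher. For late over early lactation 1 was lower, beside 6.74% of all genes, with a median of -0.03. For late over peak lactation 3 were higher, beside 8.56% of all genes, with a median of -0.27. The ratio of SOCS3 to CISH was 0.304 in the early-labelled library, 2.55 in the peak-labelled library and 0.178 in the late-labelled library, a 14.3-fold range.

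**Figure D3:**
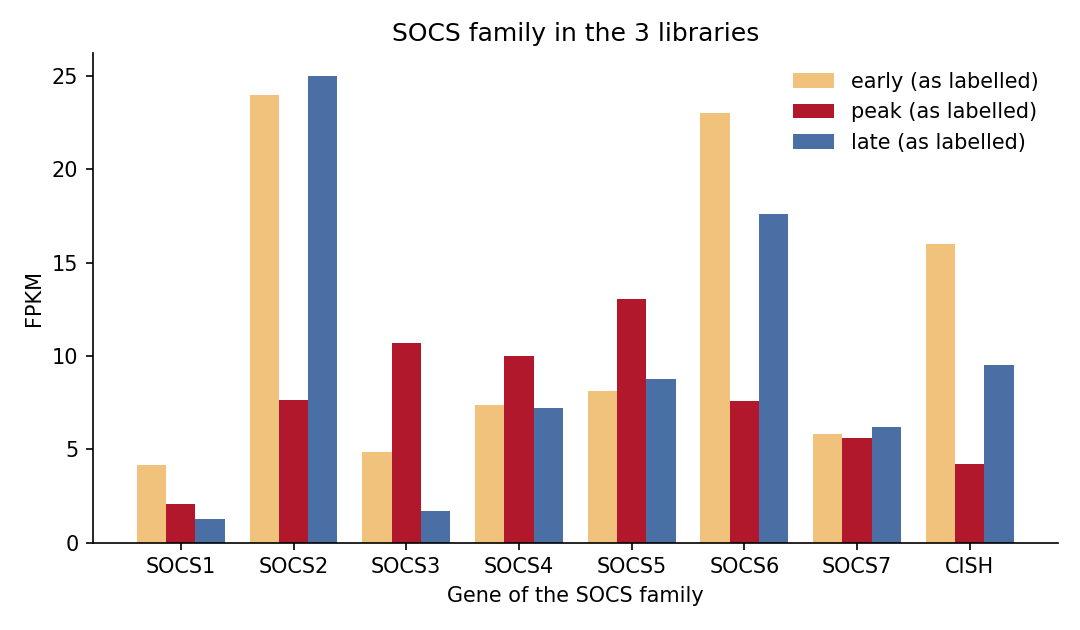
FPKM of the 8 genes of the SOCS family in the 3 libraries, early-, peak- and late-labelled, with 1 bar per pooled library and no error bars. SOCS3 is highest in the peak-labelled library at 10.7 FPKM, where CISH at 4.19 FPKM and SOCS2 at 7.64 FPKM are lowest.

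Other ligands of the interleukin-6 family were low in every library. Of 8 listed genes, 5 were found, and none was above 1.34 FPKM. IL6, the sum of 2 loci and the highest of them, had 1.34, 1.24 and 0.715 FPKM in the early-, peak- and late-labelled libraries. CLCF1, a ligand of the ciliary neurotrophic factor receptor, had 1.13 FPKM in the peak-labelled library and 0.412 FPKM in the late-labelled library. It was the only one of the 5 ligands at least 2-fold apart, beside 25.9% of all protein-coding genes for late over peak lactation. The median log2 ratio of the ligands was -0.12 for peak over early, 0.15 for late over early and -0.79 for late over peak lactation. Of the 4 other receptor genes found, none differed 2-fold, and the highest mean level was that of IL27RA, the interleukin-27 receptor, with 19.1, 30.4 and 18.0 FPKM, although IL6R was slightly above it in the early-labelled library at 19.3 FPKM. Their medians were 0.02, 0.01 and -0.07.

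Of the JAK kinases, which couple the receptors to STAT3, JAK1 was the most abundant, with 112 FPKM in the early-labelled library, 65.3 FPKM in the peak-labelled library and 126 FPKM in the late-labelled library. JAK3, the kinase of lymphocyte cytokine receptors, had 3.36, 22.7 and 1.10 FPKM, a log2 ratio of -4.37 for late over peak lactation. It was the only one of the 4 kinases at least 2-fold apart, in all 3 comparisons, beside 17.7%, 8.71% and 25.9% of all protein-coding genes. The medians of the list were 0.21, 0.07 and -0.14. STAT5A and STAT5B were not analysed here. STAT4, which acts mainly in lymphocytes, had 0.733, 2.23 and 0.423 FPKM. JAK3 and STAT4 thus had the same order of libraries as SOCS3, and JAK1 the reverse in the deposited values, where its log2 ratio of -0.78 for peak over early lactation is no larger than the shift by the coding sum.

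Most markers of white blood cells were also highest in the peak-labelled library. All 7 macrophage and monocyte markers found, of 8 listed, were highest in the peak-labelled library and lowest in the late-labelled one, with summed levels of 149.6, 249 and 78.6 FPKM in the early-, peak- and late-labelled libraries. For peak over early lactation, none of the 7 was 2-fold higher, beside 10.9% of all genes. Their median log2 ratio was 0.64, with CD14 at 0.01 and CD68 at 0.16 the smallest. For late over peak lactation, 5 were at least 2-fold lower, beside 17.4% of all genes. The 9 lymphocyte and plasma cell markers summed to 295, 522 and 354 FPKM, of which JCHAIN alone gave 266, 429 and 337 FPKM. Of the 9, 8 were highest in the peak-labelled library and 7 lowest in the late-labelled one. Their median log2 ratio for late over early lactation was -0.85, although the sum was higher in the late-labelled library. CD3E was listed at 0 in the early- and peak-labelled libraries. The 6 neutrophil markers found, of 8 listed, summed to 16.1, 28.1 and 6.35 FPKM, with S100A8 listed at 0 in the late-labelled library. From early to peak lactation this sum differed mainly by S100A8 and S100A9, and CSF3R, CXCR2, ITGAM and MMP9 had log2 ratios of -0.02, 0.11, 0.00 and 0.09. Among protein-coding genes with at least 1 FPKM in every library, 39.4% were highest in the peak-labelled library and 35.1% lowest in the late-labelled one. The summed levels of luminal epithelium (698, 740.5 and 650.3 FPKM), myoepithelium (278, 269 and 287 FPKM) and endothelium (142, 134 and 154 FPKM) varied less. Fibroblast markers summed to 664, 549 and 542 FPKM, but differed in both directions for peak over early lactation, with log2 ratios of -1.07 for COL1A2 and -1.06 for COL3A1 against 0.96 for DCN and 1.03 for PDGFRA. The 4 adipocyte markers found of 6 listed summed to 21.2, 7.82 and 10.5 FPKM. The part of these cells in the levels of SOCS3, OSMR and JAK3 was not tested, and in pooled tissue fewer cells of a type and less RNA per cell cannot be told apart. Immediate early genes, which respond to handling and surgery, had summed levels of 246, 176 and 129 FPKM over 9 genes, 8 of them lowest in the late-labelled library. Their part in the low SOCS3 of that library was not tested.

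Of the other genes listed as C/EBP factors, 4 of 5 were found, with medians of -0.27, -0.08 and 0.32. None of them differed 2-fold, beside 17.7%, 8.71% and 25.9% of all genes. CEBPZ, a member of the family by name only, had 28.5, 22.4 and 26.0 FPKM in the early-, peak- and late-labelled libraries. CEBPA, a factor of differentiated cells, had 17.9, 12.6 and 17.4 FPKM in the same order. The phosphoinositide 3-kinase subunits other than PIK3R1 were led by PIK3CA, with 13.2, 15.2 and 14.3 FPKM. Of the 7 found of 8, 1 was at least 2-fold higher for peak over early lactation, beside 10.9% of all genes, and 2 lower for late over peak lactation, beside 17.4%, with medians of 0.44, -0.01 and -0.11. These were subunits found mainly in white blood cells. PIK3R5 had 1.83, 5.10 and 1.002 FPKM, and PIK3CD had 2.66, 4.87 and 1.44 FPKM, both at least 2-fold lower in the late than in the peak-labelled library. PIK3CG, of the same list, did not share this difference. Its log2 ratio was 0.71 for late over early and 0.01 for late over peak lactation. Of the AKT genes and regulators, 13 of 14 were found, with 1 at least 2-fold higher and 2 lower for peak over early, none for late over early, and 2 higher and 2 lower for late over peak lactation, beside shares of all genes at least 2-fold apart of 17.7%, 8.71% and 25.9%. They had medians of -0.37, 0.02 and 0.41. AKT1 was the most abundant with 90.0, 49.8 and 88.1 FPKM. The adaptors IRS1, with 21.1, 9.99 and 28.5 FPKM, and GAB1, with 15.2, 6.48 and 20.2 FPKM, were lowest in the peak-labelled library. INPP5D, a phosphatase of blood cells, had the opposite order, with 4.03, 10.9 and 2.08 FPKM, and PIK3IP1, an inhibitor of the kinase, followed that order with 6.47, 10.8 and 4.68 FPKM.

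Genes linked to STAT3 in survival and early responses differed in both directions between early and peak lactation. All 11 were found, with medians of 0.11, -0.81 and -0.57 in the 3 comparisons, and FOS is also among the immediate early genes above. In the peak-labelled library, BCL3, a partner of NF-kappaB, had 3.98 FPKM against 1.27 FPKM in the early-labelled library, JUNB had 43.9 against 18.6 FPKM, and TIMP1, an inhibitor of matrix proteases, had 34.2 against 11.7 FPKM. FOS went the other way, with 42.1 FPKM in the early-labelled library and 19.9 FPKM in the peak-labelled library, as did PIM1, a survival kinase, with 16.4 and 7.59 FPKM. In the late-labelled library, JUNB (8.68 FPKM), FOS (10.2 FPKM) and ZFP36 (2.69 FPKM, against 6.23 FPKM in the early-labelled library) were at least 2-fold below early lactation, and none of the 11 was 2-fold higher, beside 6.74% lower and 1.97% higher over all genes. For peak over early lactation, 3 were higher and 2 lower, beside 10.9% and 6.8%, and for late over peak lactation 4 were lower, beside 17.4%. The most abundant was MCL1, a survival factor, with 77.9, 89.0 and 59.8 FPKM.

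Of 22 genes linked to involution, 19 were found. For late over peak lactation, 11 were at least 2-fold lower and 1 higher, beside 17.4% and 8.56% of all protein-coding genes, with a median log2 ratio of -1.34 beside -0.03 over all genes compared. The medians were 0.49 for peak over early and -0.42 for late over early lactation. CD14, S100A8 and S100A9 of this list are also among the white blood cell markers above. LTF, the milk protein lactoferrin, had 1074 FPKM in the early-labelled library, 556 FPKM in the peak-labelled library and 75.3 FPKM in the late-labelled library. CHI3L1 had 82.7, 175 and 34.9 FPKM, and the matrix proteases MMP2 and MMP14 had 42.8, 69.1 and 20.9 FPKM and 31.2, 58.1 and 17.1 FPKM. The gene that was higher in the late-labelled library was LCN2, a carrier of bacterial siderophores, with 39.9, 15.7 and 35.1 FPKM. For peak over early lactation, 4 were at least 2-fold higher, among them CHI3L1, PLAT (tissue plasminogen activator) with 11.1 and 39.0 FPKM, and S100A9, beside 10.9% of all genes, and LCN2 was lower. For late over early lactation, 6 were at least 2-fold lower, beside 6.74% of all genes, among them S100A8, singled out because it was listed at 0, and none was higher.

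Over all 86 pathway genes found of 98 listed, 20 differed at least 2-fold between early and peak lactation, 11 higher and 9 lower in the peak-labelled library. With the libraries set to the same upper quartile the split was 17 and 5, and with the same coding sum 39 and 1. Between early and late lactation, 11 differed, all lower in the late-labelled library. Between peak and late lactation, 29 differed, 6 higher and 23 lower in the late-labelled library, and with the same coding sum 2 and 44. These counts are 23.3%, 12.8% and 33.7% of the genes, beside the shares of 17.7%, 8.71% and 25.9% over all protein-coding genes.

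**Figure D4:**
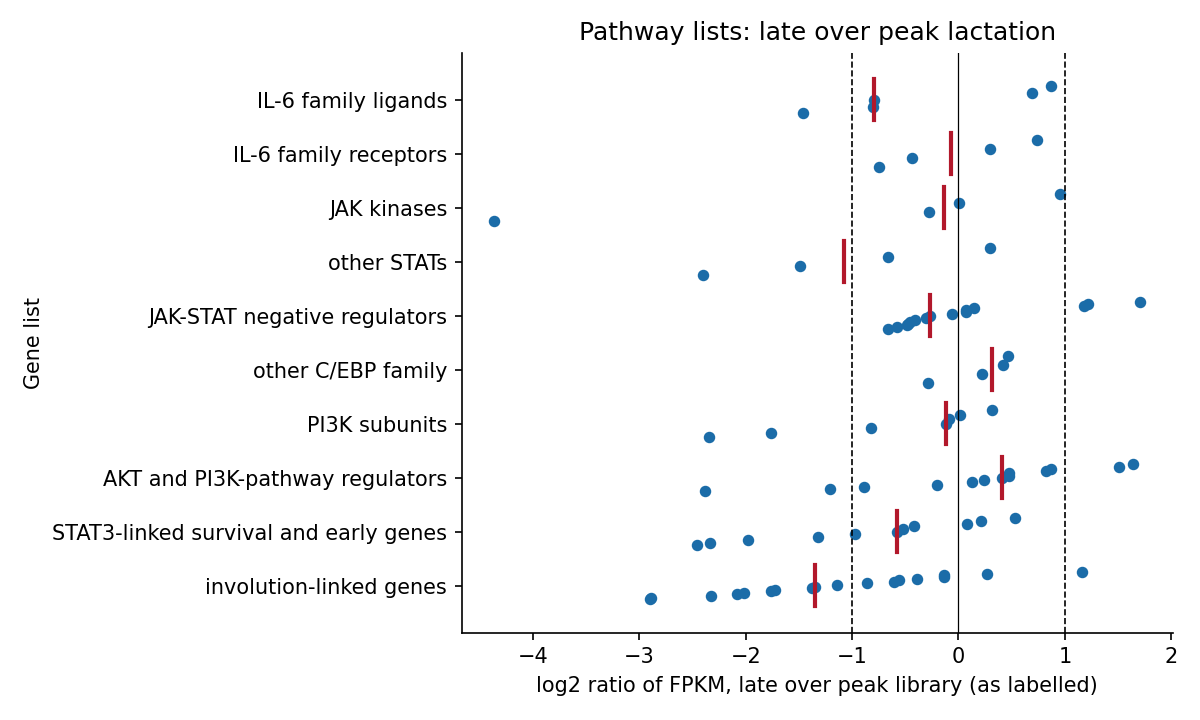
Log2 ratio of FPKM of late over peak lactation, as labelled, for each gene found of 10 pathway lists, with 1 point per gene, a red line at the median of the list and dashed lines at 2-fold. The median is -1.34 for involution-linked genes, JAK3 is the lowest point at -4.37, and S100A8, listed at 0 in the late-labelled library, is not drawn but counts in the median.

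Genes with the most similar levels over the libraries were taken from 11081 protein-coding genes with at least 1 FPKM in every library, by distance over the log2 ratios of peak and of late over early lactation. Nearest to STAT3 were HPS5, SUPT4H1 and PSMC4, at a distance of 0.006 to 0.007, and 433 genes lay within 0.1, as the pattern was nearly level. Nearest to SOCS3 were LOC102184234, LOC102183941 and BCL2A1, an anti-apoptotic gene of blood cells with 4.06, 9.79 and 1.34 FPKM. Only the first lay within 0.1, at a distance of 0.053. Likeness over 3 libraries does not show shared control.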

How the data were processed

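RNA of 5 goats was pooled into 1 library per stage. As the study's methods give it, the authors trimmed reads with Trimmomatic, mapped them with TopHat2 2.0.9, merged the transcripts that Cufflinks 2.1.1 assembled, and ran Cuffdiff on them. For 50041 loci they deposited FPKM, which the authors scaled to length and mapped reads. The methods name a version of the goat genome for mapping and a RefSeq assembly as reference, and do not say to which of them the scaffolds of the deposited values belong. Of the nonzero FPKM, 48.0% to 52.7% per library ended in the digit 5, as means of paired values would. Whether a deposited FPKM is such a mean is not given in the sources used here.

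Columns were assigned to stages by the sample labels. Of 15161 loci with a plain NCBI gene ID (entries that join an ID with a miRBase name were left out), 14290 were found in the RefSeq gene table of ARS1.2, used for symbols and classes only, and loci of one gene were summed. Ratios are of FPKM, with a listed 0 set to 0.001. Genes at least 2-fold apart were counted among protein-coding genes above 0 in either library. With 1 library per stage no test was run. The code of the fold count was checked on simulated data, with planted changes well above the threshold and noise well below it. That check says nothing about the precision of the deposited values. The genes, the lists and the comparisons were chosen with earlier results of these data known. Genes of a list were named where at least 2-fold apart with at least 1 FPKM in either library, at most the 4 most abundant per list and comparison, besides the most abundant of each list. Alternatives were other fold thresholds, pseudocounts, a filter, scalings, the highest locus and exchanged columns. No sequences were used. An item of the lists is not reported here. Python 3.11.15, numpy 2.4.6, pandas 2.3.3 and matplotlib 3.10.9 were used.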

Additional observations from a re-analysis of the deposited data

How the results depend on the processing

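At a fold of at least 1.5, 3, 3 and 4 of the 6 genes differed for peak over early, late over early and late over peak lactation, and 40, 25 and 45 of the pathway genes. At a fold of at least 4, these numbers were 0, 0 and 1, and 1, 3 and 12. The threshold itself sets these changes. With a pseudocount of 1, 0 of the 6 genes differed 2-fold between early and peak lactation, since the log2 ratio of SOCS3 became 0.997, just under the threshold. With the same coding sum, 3 genes (OSMR, IL6ST and SOCS3) differed for this comparison, and 40 and 46 pathway genes for peak over early and late over peak lactation. With the peak and late columns exchanged, 11 pathway genes differed for peak over early and 20 for late over early lactation. By construction, the exchange also reversed the log2 ratios of SOCS3, to -1.52 for peak over early, 1.14 for late over early and 2.66 for late over peak lactation, and that of OSMR to 1.57 for late over peak lactation. The other counts of genes stayed within 1.5 times their value. Taking the highest locus could not change the ratios of the 6 genes, each of which has 1 locus. No paired analysis was possible because a stage is represented by a single pooled library. For the same reason no replicate could be left out, and without read numbers the precision of low values such as those of SOCS3 and IL6 is unknown.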

Other observations

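Loci without a gene ID lay close to 5 of the 6 genes. Within 10 kb there were 11 such loci, and each reached at least 1 FPKM in at least 1 library, with 7.18 FPKM as the highest value. The locus XLOC_039562, 551 nt beyond the end of PIK3R1 and 311 nt long, had 3.02 FPKM in the early-labelled library, 7.18 FPKM in the peak-labelled one and 3.46 FPKM in the late-labelled one, while PIK3R1 itself was lowest in the peak-labelled library. The locus XLOC_039797, 3216 nt beyond IL6ST, had 0.374, 1.21 and 0.104 FPKM in the same order of libraries, as IL6ST was highest in the peak-labelled library. The locus XLOC_040045, 2420 nt beyond LIFR, had 2.16, 0.501 and 1.23 FPKM. Beyond STAT3, 3 loci had between 1.27 and 4.46 FPKM. Whether these loci are separate transcripts or unassembled ends of the neighbouring genes was not tested, and the strand of each locus was not used here. The annotated locus LOC102185866 lies 1289 nt before STAT3 and had 34.3, 20.3 and 34.2 FPKM, lowest in the peak-labelled library, where STAT3 had 40.9 FPKM.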
